A study of Mus musculus with 2 samples.

Results

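Group 2 innate lymphoid cells (ILC2) were examined in leukocytes sorted from islets of the NOD mouse, which becomes diabetic through autoimmunity. They were chosen by measured values, cell by cell, on raw counts of unique molecular identifiers (UMIs, each standing for 1 captured transcript). A barcode with at least 500 genes and at most 10% mitochondrial UMIs was taken as an ILC2 when it held at least 1 UMI of Gata3 and at least 1 of Il1rl1, Areg and Calca together. It also had to hold no UMI of Cd3d, Cd3e, Foxp3, Cpa3, Hdc or Ncr1 and at most 1 of Cd79a, C1qa and Lyz2 together. The rule found 81 cells among 22466 barcodes that met the quality limits and 24413 barcodes in all. Of these ILC2, 21 came from the WT NOD library and 60 from the library labelled NOD.Cxcl16-/-.

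Both libraries came from female mice of 12 weeks on the NOD background, one from WT NOD animals and one from NOD mice labelled as lacking the chemokine gene Cxcl16. Islets were hand-picked after collagenase digestion, and live CD45+ CD31- cells, leukocytes without endothelium, were sorted and profiled with droplet-based 3' chemistry. There was 1 library per genotype and the number of animals pooled in each is not given in the labels, so no difference between the libraries has a replicate check and genotype and library cannot be told apart. Levels are given as CPM, the UMIs of a gene scaled to 1000000 UMIs of the cells summed. Cxcl16 measured 103 CPM over all WT NOD barcodes and 102 CPM over those of the other library, which goes against the knockout label. The labels do not say which part of the gene was deleted, and 3' tags outside that part would check nothing. No direction below is therefore ascribed to the genotype. All intervals are at the 95% level and cover counting error only, exact Poisson for CPM and Clopper-Pearson for shares.

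ILC2 are tissue-resident lymphocytes without a rearranged antigen receptor. They carry receptors for the alarmins IL-33, IL-25 and TSLP, which stressed epithelial and stromal cells release, and respond with the type 2 cytokines IL-5 and IL-13 and with GM-CSF and amphiregulin. GATA3 and RORα are transcription factors needed for the lineage. In islets, ILC2 that respond to IL-33 are known to act on neighbouring myeloid cells through cytokines such as GM-CSF.

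The WT NOD library held 93553185 UMIs and the other 98681133, with medians of 4269 and 5189 UMIs per kept barcode. The ILC2 of both libraries were alike in depth. Their median was 4158 UMIs and 1584 genes in the WT NOD library, with a range of 3079 to 7738 UMIs, and 4186.5 UMIs and 1596 genes in the other, with a range of 1461 to 17089 UMIs. The cell with 17089 UMIs stood apart from the second deepest, at 7138. Summed over the ILC2 there were 93867 and 273356 UMIs. For a count of 0 a 3-count limit was used, 32.0 CPM and 11.0 CPM, and the exact intervals reach 39.3 CPM and 13.5 CPM. The libraries shared 45 barcode sequences, of which none was an ILC2.

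ILC2 made up 0.171% of kept barcodes in the WT NOD library (interval 0.106 to 0.262%) and 0.587% in the library labelled NOD.Cxcl16-/- (0.449 to 0.755%). The intervals did not overlap. Barcodes with Cd3d or Cd3e made up 73.9% and 65.5% of the same libraries, so the rest of the makeup differed as well. The share difference rests on 1 sort per group and was not tested.

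The genes of the rule describe how the cells were chosen and are given without comparison. Gata3, the transcription factor that sets the type 2 fate, had a median of 2 UMIs per ILC2 (range 1 to 6) in the WT NOD library and of 3 (1 to 8) in the other, 533 and 633 CPM. Il1rl1, the IL-33 receptor ST2, was seen in 20 of 21 and 47 of 60 cells, at 415 and 432 CPM. Areg, the growth factor amphiregulin, was seen in 11 and 45 cells, at 330.3 and 1043 CPM. Calca, which encodes the neuropeptide CGRP, was seen in 5 and 22 cells, at 170.5 and 289 CPM. Il1rl1 was absent from 1 and 13 ILC2, which entered through Areg or Calca.

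The cells just outside the rule were examined on genes that the rule did not use. The largest such set met every condition but the absence of Cd3d and Cd3e, with 97 WT NOD barcodes and 104 from the other library. They had T-cell receptor α-chain transcripts (Trac) at 658 and 612 CPM, where the ILC2 had 21.3 and 3.66, and Arg1 at 6.14 and 10.8 CPM, where the ILC2 had 138 and 274. Another 24 and 26 barcodes lacked only Gata3, and these held the antigen-presentation gene Cd74 at 14274 and 13181 CPM, where the ILC2 had 1214 and 830.4. A further 33 and 14 barcodes lacked only Il1rl1, Areg and Calca, with Rora at 468 and 299.9 CPM and Cd74 at 11352 and 9878 CPM, and this set was larger in the WT NOD library, the other way from the ILC2. These sets thus held T-cell or antigen-presentation transcripts at levels above those of the ILC2. Just inside the rule, 6 and 16 ILC2 had 1 Gata3 UMI, with Rora at 1325 and 2199 CPM, and the 13 ILC2 of the library labelled NOD.Cxcl16-/- that lacked Il1rl1 had Rora at 2174 CPM and Arg1 at 289.9 CPM.

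ILC2 markers outside the rule were in part high and in part low. Rora was at 1470.2 and 1928 CPM and in 21 of 21 and 58 of 60 cells, with a median of 6 UMIs (range 2 to 14) and 9 UMIs (0 to 25). Il7r, the IL-7 receptor that also forms part of the TSLP receptor, was at 1225 and 893 CPM and in 21 and 55 cells. Id2, a repressor of the T- and B-cell programmes that all innate lymphoid cells need, was at 820.3 and 805 CPM. The list of 19 ILC2 markers holds 3 genes of the rule, and each of the other 16 had at least 1 UMI. So had 10 of 11 T-cell genes outside the rule, so this count does not set the cells apart. Against regulatory T, NK and γδ T cells, compared below, 8 ILC2 markers were counted. Of these 3 were at least 2-fold higher than in all 3 classes, Rora, Arg1 and Csf2, while Il7r and Id2 were not. Klrg1 (53.3 and 69.5 CPM), Thy1 (53.3 and 51.2 CPM), Kit (85.2 and 87.8 CPM) and Il2ra (202 and 149.99 CPM) were low in both libraries, and the neuromedin U receptor Nmur1 had 2 UMIs in all.

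Markers of other cells were mostly absent. Genes that the rule set to 0 are left out of the counts that follow. The 7 other mast cell and basophil genes, among them Fcer1a and Gata2, were at 0 in every ILC2. Of 10 genes of NK cells and ILC1 outside the rule, 6 were at 0 in both libraries, including Klrb1c, Gzma, Prf1 and Ifng, and the list summed to between 0 and 646 CPM per WT NOD ILC2 and between 0 and 740.0 CPM in the other library. Of 7 ILC3 genes, 5 were at 0, and the list summed to 3 UMIs. The B-cell gene Ms4a1 was at 0, and the 5 B-cell genes summed to at most 773 and 1582 CPM per cell.

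T-cell genes were uneven, and the list of 14 summed to between 0 and 2779 CPM per WT NOD ILC2 and between 0 and 4171 CPM in the other library. Trbc2, the constant segment of the T-cell receptor β chain, was in 17 of 21 and 54 of 60 ILC2, at 554 and 947 CPM, and Cd3g was in 5 and 21 cells, at 128 and 241 CPM. NK cells of these libraries, gated on Ncr1 without Cd3d or Cd3e, held Trbc2 at 352 and 398 CPM and Cd3g at 216 and 342 CPM, and regulatory T cells held Trbc2 at 1574 and 1543 CPM. Trac, by contrast, had 2 UMIs in 1 ILC2 and 1 UMI in another, and Cd8b1 was at 0. A stricter exclusion of any barcode with Cd3g, Trac, Trbc1 or Trbc2 left 2 and 4 ILC2, at shares of 0.0163% and 0.0392%.

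Myeloid and endocrine transcripts were present in some cells. The 7 myeloid genes summed to a median of 574 CPM per ILC2 in the WT NOD library (range 223 to 10985) and of 494 CPM (0 to 14894) in the other, with Csf1r at 0. The insulin gene Ins2 had 1 UMI in the WT NOD ILC2 and 37 in the other, 15 of them in 1 cell. The part of free RNA or of mixed droplets in these values was not tested. A doublet score marked 1 and 0 of the ILC2.

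**Figure D1:**
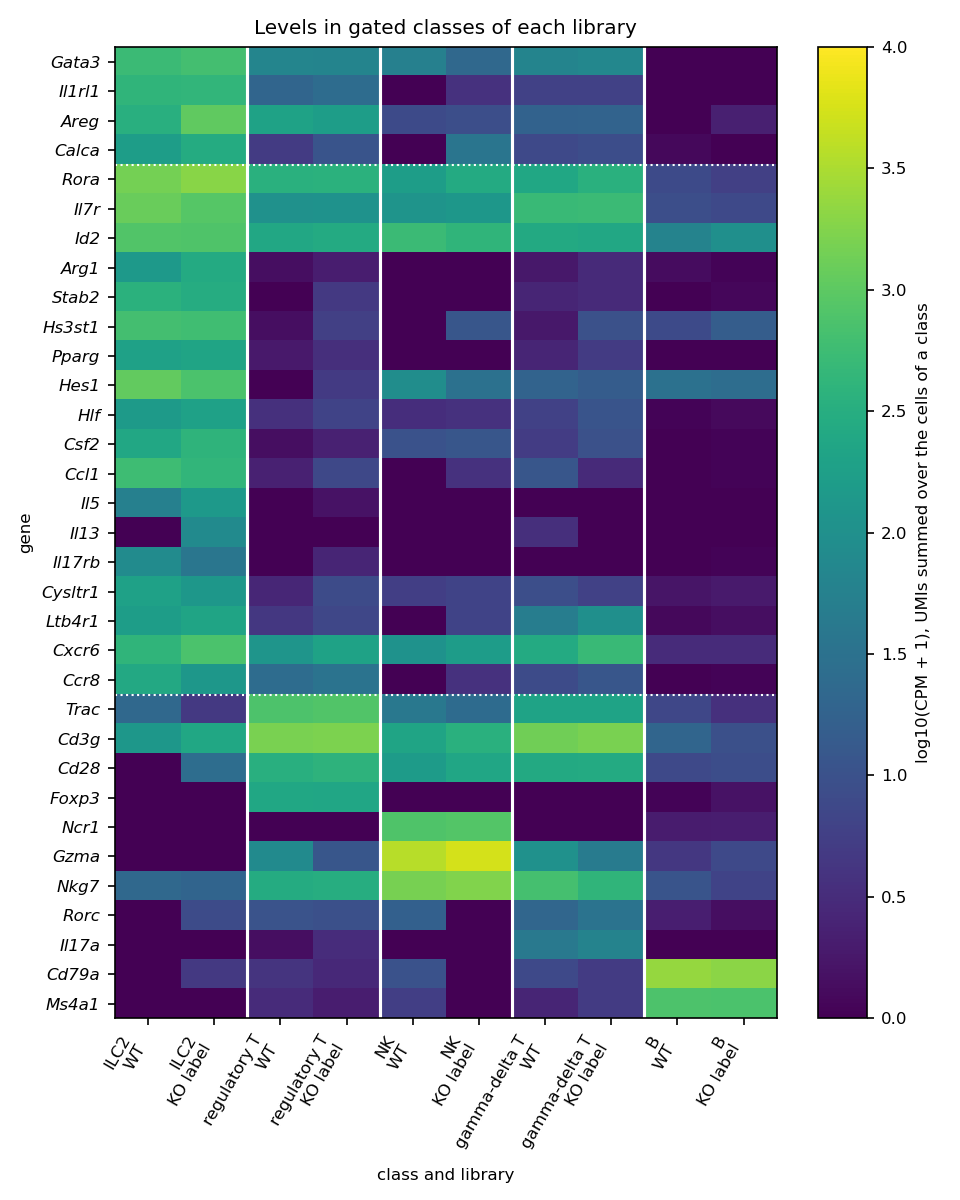
Heat map of log10(CPM + 1) for 33 genes (rows) in UMIs summed over ILC2, regulatory T, NK, γδ T and B cells of each library (columns). Above the upper dotted line are genes by whose presence the rule picked cells, and below the lower one genes of other lineages. The latter include Foxp3 and Ncr1, which the rule excluded, and Cd79a, which it limited. Rows from Arg1 to Csf2, apart from Hes1, are bright in ILC2 and dark in the other classes. Hes1 is bright in ILC2 but also reaches 91.9 CPM in WT NOD NK cells. Trac and Gzma, which the rule did not use, are dark in ILC2.

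The cytokine genes were the first readout outside the rule. Il5 lies on chromosome 11 of GRCm38 (53720794 to 53725106, plus strand), Il13 close by on the minus strand (53631324 to 53634702), and Csf2, which encodes GM-CSF, at 54247271 to 54249667 on the minus strand. The promoters are shown because GATA3, the factor used to pick the cells, binds the GATA motif, and because these genes and the receptor Il1rl1 carry the type 2 response. The windows run from 250 bases before to 50 bases after the RefSeq start in GRCm38.p6, written 5′ to 3′ on the strand of the gene. They are chr11:53720544-53720843 for Il5, chr11:53634653-53634952 for Il13, chr11:54249850-54250149 for Csf2 and chr1:40429320-40429619 for the first start of Il1rl1. Capitals mark the motif in any of its 4 forms on either strand, which are AGATAA and its variant AGATAG, and with a T in front TGATAA and its variant TGATAG.
Il5: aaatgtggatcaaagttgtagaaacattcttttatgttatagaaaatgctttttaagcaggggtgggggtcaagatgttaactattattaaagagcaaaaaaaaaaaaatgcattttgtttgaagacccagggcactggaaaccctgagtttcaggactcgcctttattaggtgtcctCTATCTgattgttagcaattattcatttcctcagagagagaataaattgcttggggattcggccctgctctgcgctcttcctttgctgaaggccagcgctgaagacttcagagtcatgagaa
Il13: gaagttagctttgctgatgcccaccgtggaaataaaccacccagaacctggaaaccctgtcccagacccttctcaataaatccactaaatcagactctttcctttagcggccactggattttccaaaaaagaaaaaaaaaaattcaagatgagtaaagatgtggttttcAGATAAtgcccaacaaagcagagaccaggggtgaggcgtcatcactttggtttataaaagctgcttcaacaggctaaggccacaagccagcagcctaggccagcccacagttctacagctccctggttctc
Csf2: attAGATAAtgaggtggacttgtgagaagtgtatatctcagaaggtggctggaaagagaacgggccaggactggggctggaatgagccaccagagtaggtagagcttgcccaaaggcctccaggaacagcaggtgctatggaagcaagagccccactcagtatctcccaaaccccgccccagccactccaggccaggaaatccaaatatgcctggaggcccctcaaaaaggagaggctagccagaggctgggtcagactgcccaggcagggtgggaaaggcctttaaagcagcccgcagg
Il1rl1: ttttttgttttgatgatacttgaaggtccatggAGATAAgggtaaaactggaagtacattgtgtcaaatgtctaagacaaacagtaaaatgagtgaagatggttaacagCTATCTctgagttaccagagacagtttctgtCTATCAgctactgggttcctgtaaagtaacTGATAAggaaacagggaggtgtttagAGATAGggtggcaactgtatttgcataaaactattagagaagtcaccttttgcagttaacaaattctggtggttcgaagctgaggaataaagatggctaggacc
The Il5 window held AGATAG on the opposite strand 72 bases before the start, and the Il13 window AGATAA 81 bases before it. The Csf2 window held AGATAA 247 bases before its RefSeq start. That window, from 54249850 upward, lies wholly before the gene position given above, whose start on the minus strand is 54249667. The Csf2 distance therefore holds for the RefSeq start only. The Il1rl1 window held 5 motifs, at 217, 141, 110, 80 and 54 bases before the start. Of 32851 RefSeq windows of the same length, 29.8% held at least 1 such motif, so a single match was common. The Areg window held none. A match is a description of the letters and not evidence of binding.

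Il5 was found in few ILC2 in each library. In the WT NOD library 4 of 21 cells held 5 UMIs in all, with a highest value of 2, which is 53.3 CPM (interval 17.3 to 124). In the library labelled NOD.Cxcl16-/- 13 of 60 cells held 39 UMIs, 143 CPM (101 to 195), and 24 of the 39 sat in 1 cell. Without that cell, and without the WT NOD cell with 2 UMIs, the levels were 56.3 and 34.3 CPM, so the difference in CPM rested mainly on 1 cell. The share of cells with a UMI was 19.0% (5.45 to 41.9%) and 21.7% (12.1 to 34.2%), and 9.52% and 10.2% after each cell was thinned to 2000 UMIs, which left out 1 shallower cell. B cells, which should lack the gene, had shares of 0 at median depths of 4674 and 4779 UMIs. The point values were thus close at matched depth, but with so few cells this does not show that the shares were alike. The thinned WT NOD share fell when a sum of at least 2 was required of Il1rl1, Areg and Calca.

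Il13 was detected in 1 library. The 21 WT NOD ILC2 held no UMI. The 3-count limit is then 14.3% of cells with a UMI and 32.0 CPM, and the exact intervals reach 16.1% and 39.3 CPM. In the library labelled NOD.Cxcl16-/- 6 of 60 cells held 22 UMIs, the highest 7, at 80.5 CPM (50.4 to 122), which at this point value is at least 2.52-fold higher than the 3-count limit for the WT NOD cells. The exact interval of the log2 ratio began at 0.91. The share was 10.0% (3.76 to 20.5%) and 6.78% after thinning, against 0 in B cells. The share in the WT NOD library was therefore not distinguishable from it at this number of cells.

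Csf2 was found in more ILC2 than Il5 or Il13. It was in 6 of 21 ILC2 at 245 CPM (155 to 368) and in 26 of 60 at 391 CPM (321 to 473). Thinned shares were 23.8% and 28.8%, with 0 in B cells of both libraries. Il4, Il9, Il3 and Ifng had no UMI in any ILC2. Ltb, a ligand of the lymphotoxin pathway, was at 522 and 907 CPM, Tnfsf11 (RANKL) at 224 and 256 CPM, and the chemokine Ccl1, a ligand of CCR8, at 565 and 432 CPM.

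Cytokine genes were seen together in few cells. Of the 81 ILC2, 39 held none of Il5, Il13 and Csf2, 31 held 1, 9 held 2 and 2 held all 3. Il5 was in 17 cells and Il13 in 6, and 2 cells held both. All 6 Il13-positive cells were of the library labelled NOD.Cxcl16-/- and also held Icos, against 41 of its 60 ILC2. Csf2, Arg1 and Cxcr6 were each in 5 of the 6. With 6 cells no link between genes is read from these counts. Il1rl1 and Calca are genes of the rule, so their overlaps were shaped by it and are not compared. Il1rl1 was in all 6 Il13-positive cells and in 16 of 17 Il5-positive cells. Calca was in 27 cells, of which 8 lacked Il1rl1. At this depth a missing UMI does not show that a cell lacked the transcript.

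**Figure D2:**
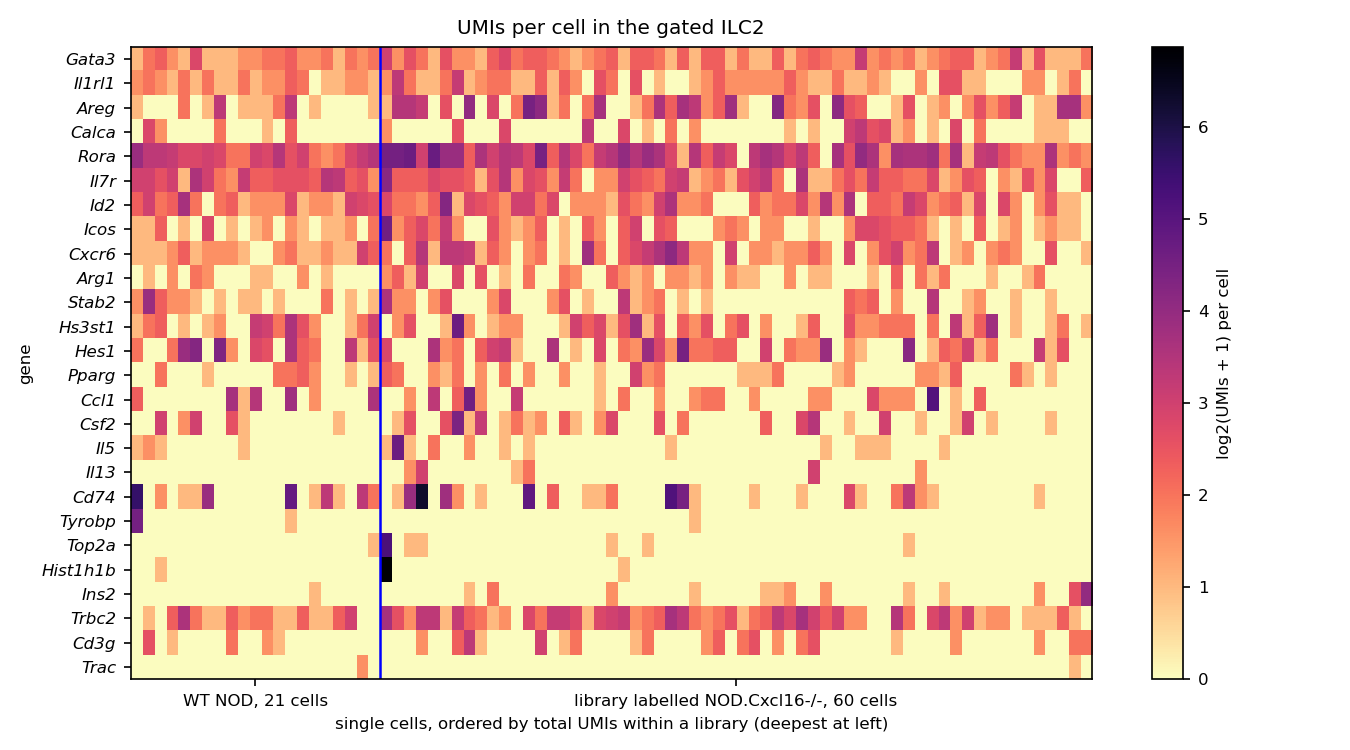
Heat map of log2(UMIs + 1) per cell for 26 genes (rows) in the 21 WT NOD ILC2 (left of the blue line) and the 60 ILC2 of the other library (right), ordered by total UMIs with the deepest cell at the left of each block. Rora fills most columns, Il5 and Il13 are in 17 and 6 columns, and Top2a and Hist1h1b are concentrated in the deepest cell of the right block.

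The ILC2 held most Il5 of the islet leukocytes. Of 7 Il5 UMIs over all kept barcodes of the WT NOD library, 5 (71.4%, interval 29.0 to 96.3%) were in the 21 ILC2, and of 47 in the other library 39 (83.0%, 69.2 to 92.4%) were in the 60 ILC2. For Il13 the shares were 0 of 8 and 22 of 37 (59.5%), and barcodes with Cd3d or Cd3e held 5 and 15 of the rest. ILC2 held 21.7% and 45.1% of the Csf2 UMIs, while barcodes with Cd3d or Cd3e held 50% and 37.6%. For Arg1, ILC2 held 15.1% and 44.1%, and barcodes with Cd3d or Cd3e held 53.5% and 36.5%. For Stab2, ILC2 held 23.3% and 48.0%, and barcodes with Cd3d or Cd3e held 45.2% and 37.0%. The ILC2 were 0.171% and 0.587% of kept barcodes.

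Il1rl1, Areg and Il4 UMIs lay mainly in barcodes with Cd3d or Cd3e, which were 73.9% and 65.5% of kept barcodes. ILC2 held 13.3% and 20.4% of the Il1rl1 UMIs and 1.68% and 10.2% of those of Areg, and barcodes with Cd3d or Cd3e held 79.9% and 71.3% of Il1rl1 and 94.1% and 83.7% of Areg. None of the 51 and 79 Il4 UMIs was in an ILC2, and 78.4% and 92.4% were in barcodes with Cd3d or Cd3e. The Il1rl1 shares and the WT NOD Il4 share were near the share of such barcodes. The alarmin Il33 had 343 and 495 UMIs over kept barcodes, Tslp 31 and 25 and Il25 none, with 0 in ILC2. Il33 UMIs lay in barcodes with Cd3d or Cd3e at 74.1% and 67.9%, near the share of barcodes of that kind.

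**Figure D3:**
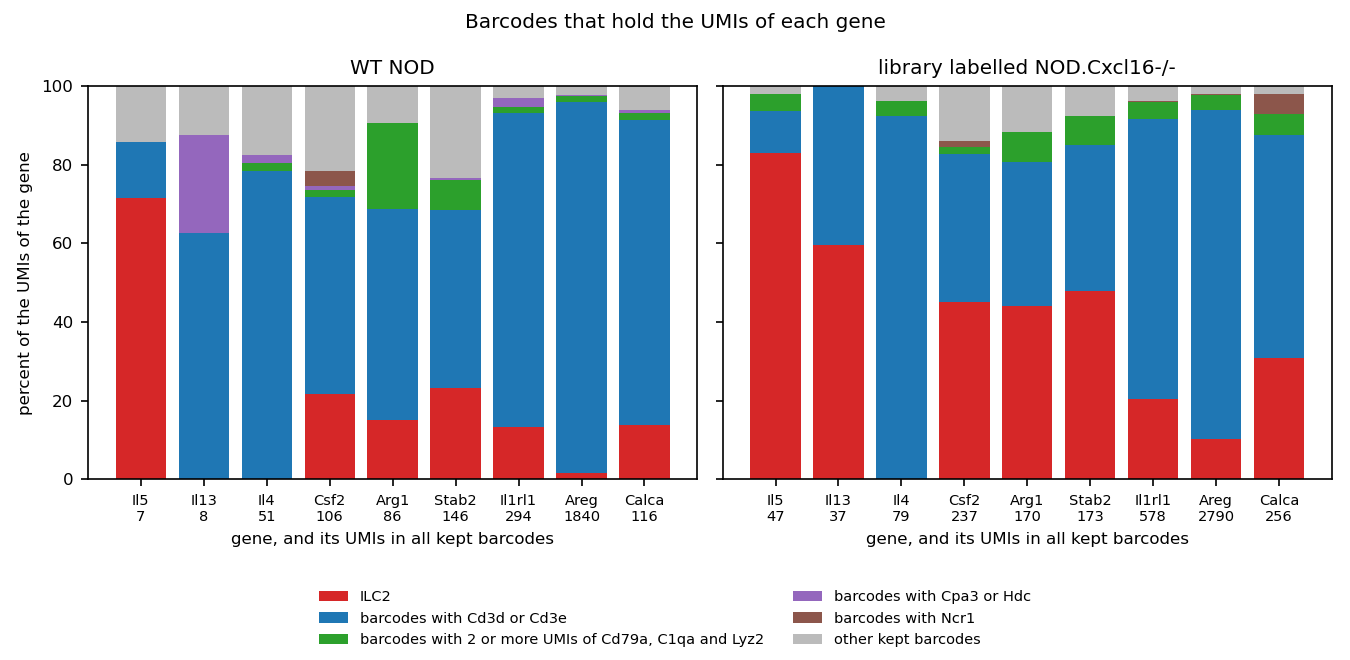
Stacked bars of the percent of UMIs of 9 genes held by ILC2 (red) and by 5 other sets of kept barcodes, for each library, with the number of UMIs under each gene. The red part is tallest for Il5, at 71.4% and 83.0%, and absent for Il4.

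ILC2 were next set beside the 3 lymphocyte classes most like them, gated on raw UMIs within the same libraries. These were regulatory T cells (Foxp3 and Cd3, 305 and 433 cells), NK cells (91 and 79) and γδ T cells (Trdc and Cd3, 243 and 175). A gene counted as higher when its CPM was at least 2-fold above all 3 classes in both libraries, among genes with at least 50 CPM and 10 UMIs in the ILC2 of each library. Of 1338 such genes 98 were higher, which is 7.32%, and of 2338 genes with at least 50 CPM in every class 94 were lower, which is 4.02%. Genes of any gate were left out of these counts. With 1 library per group the classes were compared by size and not by test, and the lowest of the 6 log2 differences had a median of -0.32 over the genes counted.

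Arginase-1 (Arg1), which breaks down arginine and marks tissue ILC2, led the list. It had 13 UMIs in 8 WT NOD ILC2 and 75 UMIs in 32 of the other, 138 CPM (73.7 to 237) and 274 CPM (216 to 344), and was at most 1.97 CPM in any of the classes. Its lowest log2 difference was 6.26. The scavenger receptor Stab2 was at 362 and 304 CPM, against at most 3.54. The heparan sulfate sulfotransferase Hs3st1 was in 15 and 40 ILC2, at 629 and 593 CPM, against at most 10.8. Of the 81 ILC2, 73 held at least 1 of Arg1, Stab2 and Hs3st1, and 14 held all 3.

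Transcription factors among the 25 leading genes covered several families. Pparg, a lipid-sensing nuclear receptor, was at 192 and 212 CPM and at most 3.94 CPM in the classes. Hes1, a target of Notch, was at 1097 and 743 CPM (14 of 21 and 38 of 60 cells) against at most 91.9. The bZIP factor Hlf was at 149 and 190.2 CPM, and Klf5 at 107 and 76.8 CPM. Rora met the same rule, with a lowest log2 difference of 2.08. Of 10 factors counted on the list of 25, 2 were higher, Rora and Pparg, and the list's median lowest difference was 0.02, against -0.32 for all genes.

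Secreted factors and receptors for lipids and chemokines were also among the leading genes. Ccl1 (lowest log2 difference 5.61), Csf2 (4.59) and Cxcl2 (3.42) were the chemokine and cytokine genes of the 25. Cysltr1, a receptor for cysteinyl leukotrienes, was at 192 and 128 CPM and at most 8.16 CPM in the classes. Further genes of the lists that met the rule included Ltb4r1, the leukotriene B4 receptor (170.5 and 212 CPM), Ccr8 (256 and 128 CPM) and Tnfsf11. On the list of neuropeptide, lipid and hormone receptors, Ptgdr2, the prostaglandin D2 receptor CRTH2, had no UMI in any ILC2.

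Early response genes were set beside the classes in the same way. Of the 12 on the list all reached the counting limit and 7 were higher than in all 3 classes, against 7.32% of all genes counted, and their median lowest log2 difference was 1.17, against -0.32 for all genes. Junb was at 8001 and 7265 CPM, against at most 3370.6 CPM in a class, and was in all 81 cells. Fos was at 1843 and 1759.6 CPM, and Fosb at 1097 and 885 CPM. Dusp1, Egr1, Nfkbid and Zfp36 were the others. Fosb UMIs ranged from 0 to 20 and from 0 to 24 per cell, with medians of 4 and 3.

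Several of the genes lowest in ILC2 are known from T and NK cells. Regulatory T and γδ T cells were gated on Cd3d or Cd3e and ILC2 on their absence. The gates therefore favour low T-cell genes in ILC2 against these classes. NK cells, like ILC2, were gated without Cd3d or Cd3e. Lck, the kinase of the T-cell receptor, had 1 and 4 UMIs, 10.7 and 14.6 CPM, against at least 221 CPM in each class. Cd28, Cd2, Sh2d1a and Nkg7 were also among the 10 lowest. Cd28 had no UMI in 21 WT NOD ILC2 and 7 in the other, at 25.6 CPM, against at least 159 CPM. The cells also held less of Tcf7, Socs3, Il18r1 and Cxcr3 than every class, and Il18r1, a subunit of the IL-18 receptor, was at 74.6 and 73.2 CPM against at least 225.

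Of the 9 genes of the alarmin receptor list, all had UMIs. Il17rb, the IL-25 receptor, was in 5 of 21 and 8 of 60 ILC2, at 85.2 and 36.6 CPM, and at most 1.63 CPM in the classes. Crlf2, the TSLP receptor chain, was in 3 and 11 cells, at 32.0 and 40.2 CPM. Il1rap, the shared chain that ST2 needs to signal, had 1 and 4 UMIs.

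The ILC2 of the libraries were then compared with each other on the log2 ratio of CPM, the library labelled NOD.Cxcl16-/- over WT NOD, with 1 CPM added. Of 2610 genes with at least 20 UMIs over both, 356 differed at least 2-fold, which is 13.6%. Of these 263 (10.1%) were higher and 93 (3.56%) lower in the library labelled NOD.Cxcl16-/-, and 46 and 28 of them had Poisson intervals that did not overlap. The minimum of 20 UMIs weighs unevenly on the libraries, since a gene at 0 in the WT NOD ILC2 is counted from 73.2 CPM in the other library and a gene at 0 there from 213 CPM in WT NOD. The larger number of higher genes is therefore in part set by this minimum and is not read as a direction. The median ratio of all genes counted was 0.11. With 21 cells on one side, most genes rested on few UMIs, and none of these ratios has a replicate check.

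Among the genes of the lists, the costimulatory receptor Icos was at 288 CPM (27 UMIs) and 530.4 CPM (145 UMIs), a log2 ratio of 0.88 (interval 0.28 to 1.53). The ratio was 0.10 in regulatory T, 0.01 in NK and 0.38 in γδ T cells. Ltb had a ratio of 0.80 (0.35 to 1.27), against -0.07, -0.04 and 0.16. Rora had 0.39 (0.12 to 0.67). Arg1 had 0.98 (0.13 to 1.96), and Csf2 0.67 (0.02 to 1.39). These were higher in the library labelled NOD.Cxcl16-/- but under 2-fold. With at least 2 UMIs required of Il1rl1, Areg and Calca together, Csf2 had 1.47, Arg1 1.45 and Ltb 1.00, at or past 2-fold. Under the stricter T-cell exclusion, with 2 and 4 cells left, Csf2 had -0.29 and Rora -0.41.

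Several genes, receptors among them, stood the other way. Il7r had a log2 ratio of -0.46 (-0.78 to -0.12) and Ccr8 of -0.99 (-1.79 to -0.18). Ramp1, which forms the CGRP receptor with Calcrl, was at 724 and 457 CPM, a ratio of -0.66 (-1.10 to -0.22). Hes1 had -0.56 (-0.91 to -0.21), and Zfp36 -0.75 (-1.17 to -0.32). In regulatory T and γδ T cells Il7r had 0.02 and 0.08, and Ccr8 0.36 and 0.50. Under the stricter T-cell exclusion Il7r had 0.29. Whether these ratios differ between classes was not tested.

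Past 2-fold, the integrin chain Itgb1 was in 6 of 21 and 23 of 60 cells at 63.9 and 198 CPM, which gives 1.61 (0.41 to 3.14), and -0.80 under the stricter T-cell exclusion. The GTPase Rnd3 had a ratio of 1.62 (0.80 to 2.58). The corepressor Runx1t1 was absent from the WT NOD ILC2 and had 30 UMIs in 12 cells of the other, at least 3.43-fold higher at the point value than the same limit. Tnfsf8, the ligand of CD30, had 0 and 20 UMIs, the latter in 4 cells.

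A few single cells set the largest ratios. The deepest cell of the library labelled NOD.Cxcl16-/-, with 17089 UMIs, held 36 of 41 Top2a and 116 of 117 Hist1h1b UMIs, genes of dividing cells, and Mki67 was at 20 UMIs there. Counts of histone genes such as Hist1h1b are uncertain in 3' data. Without this cell and the deepest WT NOD cell, the Top2a ratio of 3.70 became 0.70. That WT NOD cell, with 7738 UMIs, held 22 of 23 Tyrobp and 34 of 56 H2-Ab1 UMIs, genes of myeloid and antigen-presenting cells, and Tyrobp, the lowest ratio at -5.72, became -1.36. Without both cells H2-Ab1 went from -1.67 to -0.39. For 5 of the 46 genes and 2 of the 28, 1 cell held over 50% of the UMIs of both libraries together. Of the UMIs of WT NOD ILC2 alone, 1 cell held 52.9 to 95.7% for Tyrobp, Pik3c2a, Tfdp2, Litaf, Tbc1d4, Epc1 and Gtf2i. These belong to the 10 lowest ratios with intervals apart, where Plcb4, Rabep1 and Klf10 had 25 to 50% in 1 cell.

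The list counts were small and are given beside the shares of all genes counted, 10.1% higher and 3.56% lower. Of 7 cytokine and growth factor genes counted, 3 were at least 2-fold higher (Il5, Il13 and Tgfb1) and none lower, with a list median of 0.80 against 0.11 for all genes. Without the cell of each library with the most Il5 UMIs the Il5 ratio of 1.40 became 0.70, under 2-fold. Of 8 counted in the γ-chain list 3 were higher, Il2rb, Socs1 and Socs2, with a median of 0.45. None of 13 transcription factors counted and none of 12 early response genes differed 2-fold. Of 10 receptors for neuropeptides, lipids and hormones, 1 was lower, Adora2a. Of 5 checkpoint genes 1 was higher (Tnfrsf9) and 1 lower (Cd274).

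Cxcr6, the receptor for CXCL16, was in 19 of 21 and 45 of 60 ILC2, with levels of 415 CPM (295 to 568) and 743 CPM (644 to 852), or 0.84 (0.34 to 1.37) as a log2 ratio. The ratio was 0.71 in regulatory T, 0.57 in NK and 0.86 in γδ T cells, and -0.04 over all kept barcodes. Cxcl16 itself had 2 UMIs in 1 WT NOD ILC2 and none in the other library.

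**Figure D4:**
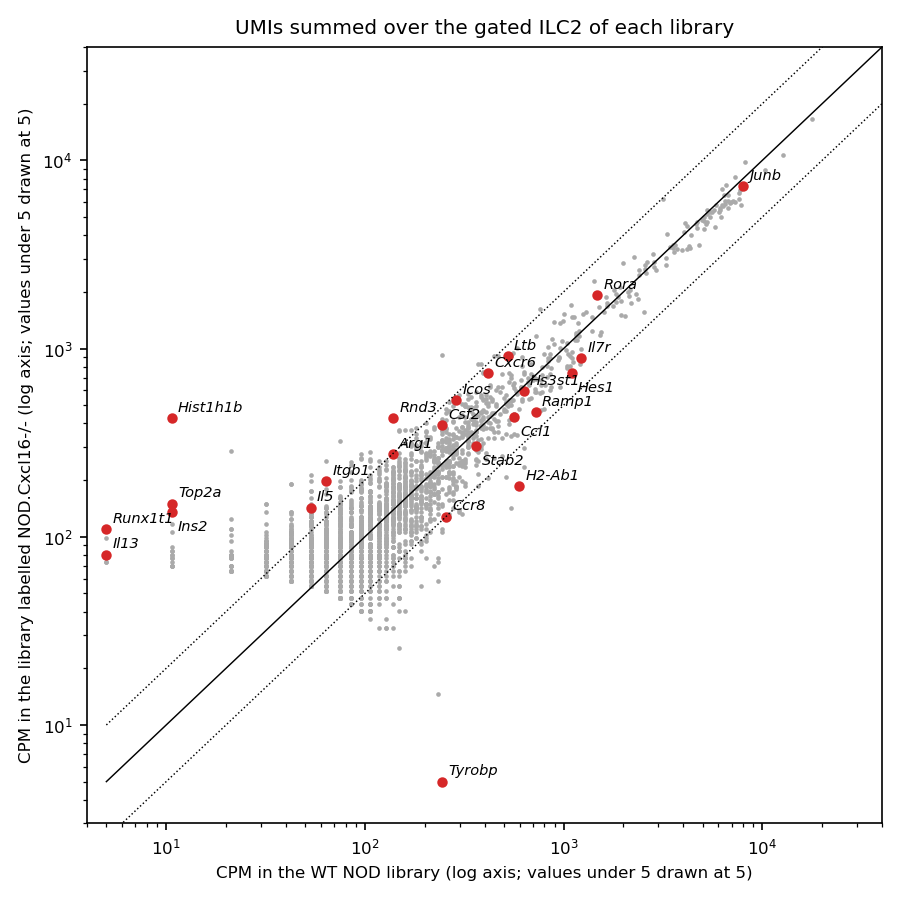
Scatter of CPM in the WT NOD ILC2 (x, log axis) against CPM in the ILC2 of the library labelled NOD.Cxcl16-/- (y, log axis), 1 point per gene with at least 20 UMIs, with the line of equality and dotted lines at 2-fold. Most points lie between the dotted lines, as 13.6% of 2610 genes lie outside them, and red points are named genes. Values under 5 CPM are drawn at 5.

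**Figure D5:**
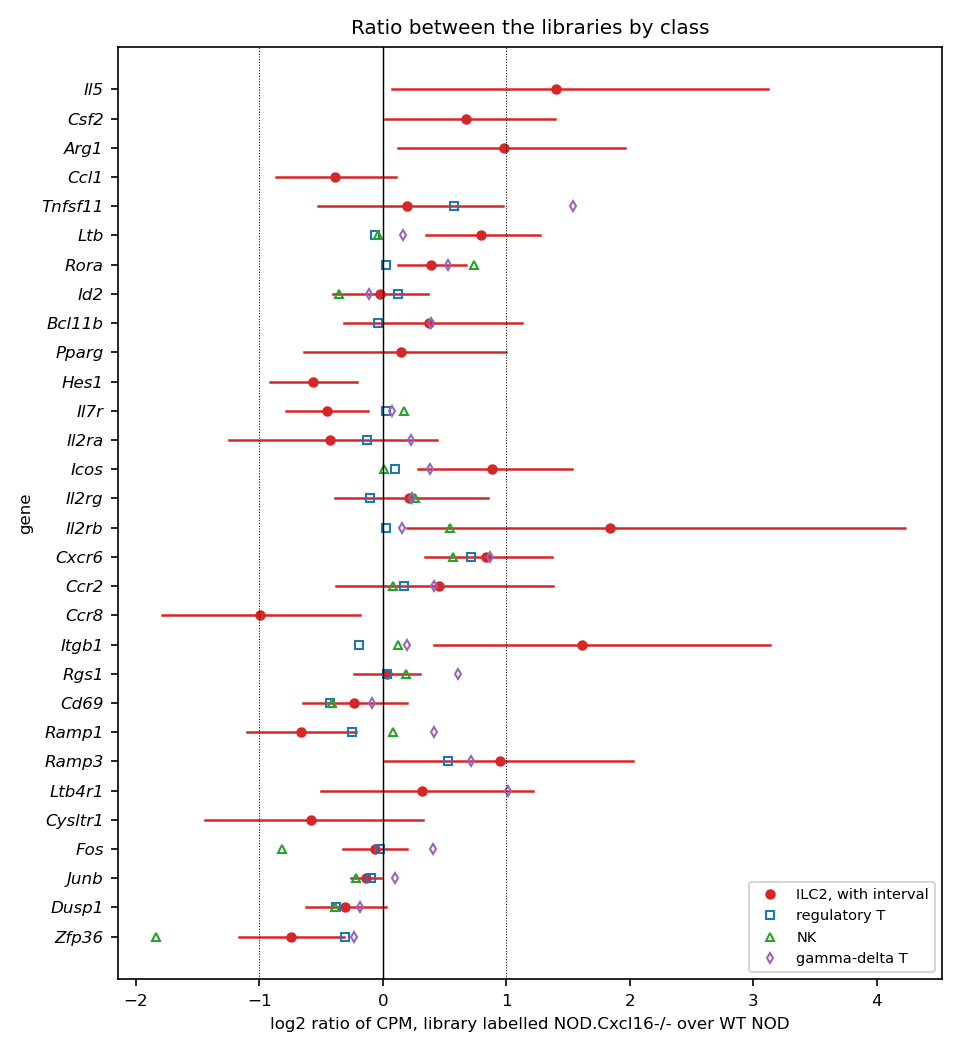
Log2 ratio of CPM, the library labelled NOD.Cxcl16-/- over WT NOD, for 30 genes (y) in ILC2 (red, with 95% counting intervals) and in regulatory T, NK and γδ T cells (open symbols, drawn where the class had at least 30 CPM in both libraries). Cxcr6 has similar ratios in all 4 classes, and Icos, Ltb and Itgb1 have their highest value in ILC2.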

How the data were processed

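Matrices of raw UMI counts per gene and barcode were used, 1 for each of the 2 libraries, which the authors deposited as whole numbers without normalization. Cell Ranger 7.0.1 and the build mm10 are named in the submitters' processing notes. Whether intronic reads were counted is not given in the sources used here. The lowest total of a barcode was 500 UMIs. Barcodes with at least 500 genes and at most 10% mitochondrial UMIs were kept (12252 and 10214).

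The cells, the gene lists and the rule for naming genes were chosen with earlier results of these data known. Regulatory T cells were gated on Foxp3 with Cd3d or Cd3e and without Ncr1 or Cd8, NK cells on Ncr1 without Cd3d, Cd3e or Foxp3, and γδ T cells on Trdc with Cd3d or Cd3e and without Foxp3, Ncr1 or Cd8, all with the limits of the ILC2 rule on Cd79a, C1qa, Lyz2, Cpa3 and Hdc. B cells had at least 2 UMIs of Cd79a and 1 of Ms4a1, without Cd3d, Cd3e, C1qa, Lyz2 or Gata3. For each class and library, counts were added up across cells and scaled to CPM. Ratios carry 1 CPM added. Named genes are those of the rule and of the lists, the 25 highest and 10 lowest against the 3 classes and the 10 largest ratios each way between libraries with intervals apart. Intervals came from scipy 1.17.1. With 1 library per group no test was made, and cells were not used as replicates. Shares with a UMI were compared after thinning each cell to 2000 UMIs. Doublets stayed in, and barcodes with the highest doublet scores (1201 and 835) were removed as an alternative. Gene positions are from GENCODE M21, where 32158 of 32285 gene IDs matched, and promoter windows from RefSeq on GRCm38.p6. The counting scripts were tested on simulated data. Alternatives changed the quality limits, the rule, the scaling, the CPM added, the fold and the count minimum.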

Additional observations from a re-analysis of the deposited data

How the results depend on the processing

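The shares of ILC2, the thinned shares of ILC2 with Il5 or Il13 and the counts of genes were recomputed under 18 other settings, 4 of them chosen after seeing the data, and 90 of 108 such values stayed within the counting interval or, for counts of genes, within 1.5 times the first value. Of the log2 ratios of single genes, 303 stayed within their interval, 20 moved past it and 6 whose interval did not hold 0 turned direction. Leaving out every barcode with Cd3g, Trac, Trbc1 or Trbc2 left 2 and 4 ILC2, so its values rest on 6 cells. It gave shares of 0.0163% and 0.0392% of kept barcodes, thinned Il5 shares of 50% and 0%, a thinned Il13 share of 25% in the library labelled NOD.Cxcl16-/-, 10 genes higher and 399 lower than the like classes, and 14 higher and 6 lower between libraries. It also turned the log2 ratio of Csf2 to -0.29, of Rora to -0.41, of Il7r to 0.29, of Itgb1 to -0.80, of H2-Ab1 to 6.96 and of Top2a to -6.77. A sum of at least 2 for Il1rl1, Areg and Calca brought the thinned Il5 share of the WT NOD library to 0%, with 15 cells left. A 1.5-fold limit gave 159 genes higher and 253 lower than the like classes and 594 higher and 308 lower between libraries. With at least 50 UMIs these were 51 and 13, and with at least 1 UMI 3569 and 2166. Leaving out, for 17 genes, the ILC2 with the most UMIs of that gene was also chosen after seeing the data, and it moved H2-Ab1 to -1.04. Median-of-ratios scaling shifts every ratio by 0.11. No paired analysis was possible because each group has 1 library, and for the same reason no replicate could be left out. For the other settings the cause was not tested. Depth limits what could be seen in the WT NOD ILC2, where 1 UMI is 10.7 CPM.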
